A study of Mus musculus with 31 samples.

Results

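The estradiol responses of both uterine genotypes were set against each other in the MISS line of mice, and the results concern the genes in which these responses differed. MISS KO mice carry an estrogen receptor α that, from knowledge outside the labels, is not palmitoylated, so that it does not reach the cell membrane, and still acts in the nucleus. The quantity described is therefore the change with 17β-estradiol (E2) in MISS KO minus the change in MISS WT, called "the difference" below. It was taken over all 55681 probes that are not controls and rests on 16 of the 31 arrays of the series, 4 in each of the groups MISS KO E2, MISS KO placebo (PLB), MISS WT E2 and MISS WT PLB.

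The labels give uterus as the tissue and C57BL6/N as the background of both MISS genotypes. All mice had their ovaries removed at 4 weeks of age, were rested for 3 weeks on normal chow, and then received castor oil under the skin, with E2 at 8 µg/kg or, in the placebo groups, with none, for 6 h. The other 15 arrays come from the AF2 line on C57BL6/J, whose KO receptor lacks activation function 2, the part that recruits coactivators when hormone binds (AF2 KO E2 with 3 arrays, AF2 KO PLB, AF2 WT E2 and AF2 WT PLB with 4 each). Sample titles carry a number of their own, but no label says that each sample was a separate mouse, so the p-values measure the spread between these samples. The altered receptor is not described in the labels as limited to a cell type, and each array holds RNA of the whole uterus after 1 dose at 1 time.

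Estrogen receptor α is a hormone-activated transcription factor that binds estrogen response elements in DNA, or joins other factors such as AP-1 on theirs. A small palmitoylated pool sits at the plasma membrane with caveolins and G proteins, where E2 starts kinase signalling within minutes. In the uterus of an ovariectomised mouse E2 first brings transcription of growth, stress and ribosome genes and water uptake, and later cell division. A difference near 0 means equal changes in both genotypes, whatever their size.

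Levels are log2 values relative to the 75th percentile of the array, so that they compare arrays for 1 probe and not genes with each other. That percentile was 674 to 1040 intensity units on the 16 arrays, between 61.8 and 76% of probes exceeded background clearly, and no spot was saturated. Each of the 4 slides held 1 array of each MISS group. Arrays of the same MISS group correlated at 0.983 or more, and the highest correlation between any 2 MISS arrays was 0.995, so that no array repeated another. E2 and placebo arrays were separated on the first principal component (71.7% of the variance over the 16 arrays), while the second (6.49%) followed the slides, with scores of −30.9 to −17.0 on slides 1 and 2 and 8.05 to 48.3 on slides 3 and 4. On the third (4.17%) the placebo arrays parted by genotype, at 17.4 to 32.1 in MISS KO and −44.4 to −8.33 in MISS WT. The E2 arrays of both genotypes overlapped on it. The main model has no term for slide, and the values with slide as a block are given beside the counts. Esr1, the gene of the altered receptor, had a level of 3.25 ± 0.27 in MISS KO E2, 3.26 ± 0.09 in MISS KO PLB, 2.86 ± 0.12 in MISS WT E2 and 3.21 ± 0.11 in MISS WT PLB (SD, n = 4 each). The sources do not place the alteration, so this probe checks no genotype.

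The promoters that bear on the first results are shown here, because genes of protein folding in the endoplasmic reticulum (ER) and the cytokine Il11 were among those whose response was smaller in MISS KO. Each run is the 250 bases before the transcription start in RefSeq (GRCm38.p6), 5′ to 3′ along the gene. In Hspa5 (chr2:34771840-34772089, plus strand) the capitals mark an ER stress response element, CCAAT and CCACG with 9 bases between them, 65 to 47 bases before the start. In Herpud1 (chr8:94386179-94386428, plus strand) they mark the second form of that element, ATTGG and CCACG with 1 base between them, at 52 to 42. In Dnajb9 (chr12:44210069-44210318, minus strand) they mark 2 copies of CCACG, the part both forms share. Neither full form was found there, and how many genes hold this short string was not counted. In Il11 (chr7:4778142-4778391, minus strand) they mark an AP-1 motif, TGANTCA, 98 to 92 bases before the start.
Hspa5: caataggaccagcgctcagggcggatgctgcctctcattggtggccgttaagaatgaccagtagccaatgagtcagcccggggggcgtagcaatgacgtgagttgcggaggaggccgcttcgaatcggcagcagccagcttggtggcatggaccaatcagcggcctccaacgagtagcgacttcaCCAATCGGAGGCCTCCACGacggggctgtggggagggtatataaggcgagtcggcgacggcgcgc
Herpud1: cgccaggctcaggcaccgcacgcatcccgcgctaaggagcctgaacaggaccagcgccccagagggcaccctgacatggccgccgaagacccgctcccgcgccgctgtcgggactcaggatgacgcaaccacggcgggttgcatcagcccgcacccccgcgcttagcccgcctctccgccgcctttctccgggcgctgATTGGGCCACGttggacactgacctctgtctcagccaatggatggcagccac
Dnajb9: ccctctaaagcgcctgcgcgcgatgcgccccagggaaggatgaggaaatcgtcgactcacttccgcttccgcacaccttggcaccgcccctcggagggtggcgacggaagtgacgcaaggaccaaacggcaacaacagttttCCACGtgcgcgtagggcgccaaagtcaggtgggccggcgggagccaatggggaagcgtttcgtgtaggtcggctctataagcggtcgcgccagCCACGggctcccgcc
Il11: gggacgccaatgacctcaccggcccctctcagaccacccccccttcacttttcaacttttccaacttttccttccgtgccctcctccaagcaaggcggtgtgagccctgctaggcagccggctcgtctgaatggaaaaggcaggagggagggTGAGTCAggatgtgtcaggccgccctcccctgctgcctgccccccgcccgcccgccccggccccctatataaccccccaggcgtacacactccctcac
Except for CCACG alone, these motifs were searched on both strands in all 27025 genes of the promoter table, where 156 of the 243 called genes had an entry. The full ER stress element stood in 0.13% of all genes. In the list of ER chaperones 7 of 19 genes (36.8%) held it, namely Hspa5, Calr, Canx, Creld2, Dnajc3, Hsp90b1 and Pdia6. None of the called genes held it, which at a share of 0.13% says little. Herpud1 was the single called gene with the second form, which 0.037% of all genes held. The AP-1 motif was in 7.82% of all genes and 6.3% of the tested ones, in 15 of 119 genes with a negative difference (12.6%) and in 2 of 37 with a positive one (5.41%). No called gene held the complete estrogen response element, GGTCA and TGACC with 3 bases between them, in this window. That element stood in 0.0666% of all genes, so that its absence says little either. A match describes letters and not binding.

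Most of the estradiol response was alike in size in both genotypes. E2 changed 15512 genes in MISS KO (57.3% of 27056 tested; 30.1% raised and 27.2% lowered) and 16842 in MISS WT (62.2%; 35.1% raised and 27.1% lowered), at an adjusted p under 0.05 in limma with Benjamini-Hochberg adjustment. The response score, the mean change of 2984 raised genes minus that of 3912 lowered genes, all chosen on AF2 WT arrays, where 15597 genes changed (57.6%; 27.6% raised and 30.1% lowered), was 3.16 ± 0.107 in MISS KO and 3.27 ± 0.0982 in MISS WT (SD, n = 4 E2 arrays each). That is 96.7% of the wild type, with 93.1% for the raised genes and 102% for the lowered ones. Within slides 1 to 4 the share was 95.7, 99.7, 91.3 and 100.5%. A shift common to all genes cancels in the score, but not in the separate shares of raised and lowered genes. The median difference of all tested genes was −0.07, and 0.000852 with median scaling, where the share of the score was 96.9%. The separate shares thus depend on the scaling and were not computed under others. They do not show that raised genes alone responded less.

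The difference itself was called for 243 of 27056 genes (0.898%). It was negative for 177 (0.654%) and positive for 66 (0.244%), where negative means a smaller increase or a larger decrease in MISS KO. A change of 2-fold or more in the difference was reached by 88 of the negative and 32 of the positive genes. The median difference of all tested genes was −0.07, and 2900 genes had an unadjusted p under 0.05. With slide as a block, which the layout of 1 array per group and slide allows, 1119 genes were called, 833 negative and 286 positive, and these held all 243. With the 16 MISS arrays alone the count was 153, of which 138 were among the 243. The number of calls thus varied with the model, and 120 of the 243 genes (95 negative, 25 positive) were called with any 1 of the 16 arrays left out. The count was 138 without MISS WT PLB replicate 3 and 160 without MISS KO PLB replicate 1, the arrays whose omission moved it by over 1.5 times.

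**Figure D1:**
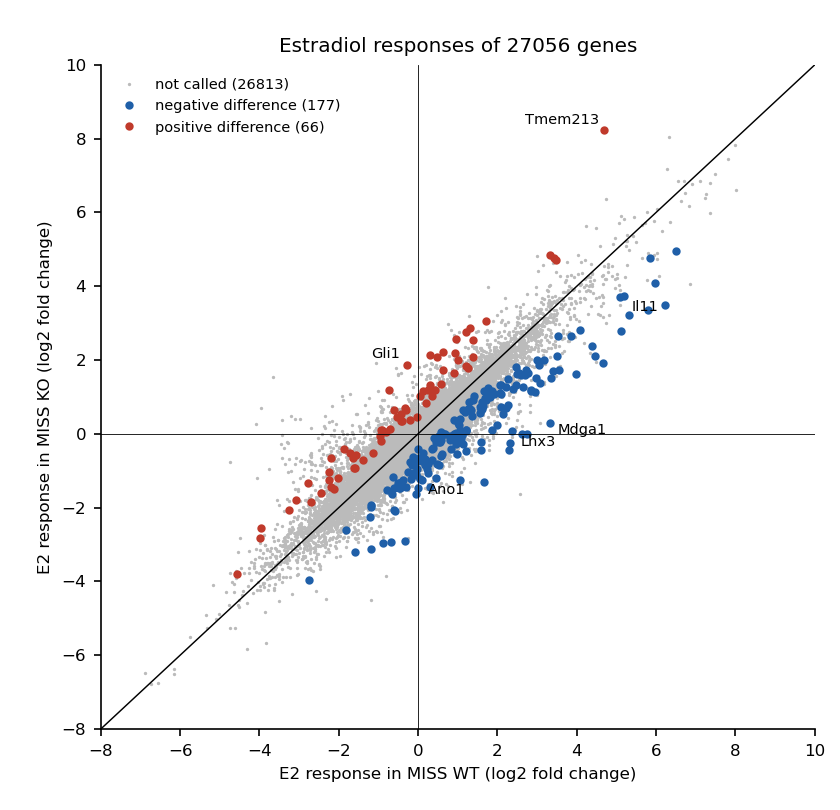
E2 response in MISS KO (vertical, log2 fold change) against that in MISS WT (horizontal, log2 fold change) for 27056 genes, 1 point per gene, with the line of equal responses. The 177 genes with a negative difference lie below the line and the 66 with a positive one above it, and most points lie close to the line.

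A p above the threshold does not show equal responses, so the interval of the difference was read as well. The 95% confidence interval lay within 2-fold in both directions for 19324 genes (71.4%), and for 4497 of the 6896 genes (65.2%) that changed at least 2-fold in AF2 WT. Of these 6896 genes, 101 were called different. The median SE of a difference was 0.23, so that small differences of single genes were below what 4 arrays per group can show.

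Several known estrogen targets gave differences near 0. Pgr, the progesterone receptor gene, rose by 2.58 ± 0.11 in MISS KO and by 2.46 ± 0.11 in MISS WT (log2 ± SE), a difference of 0.11 with a 95% interval of −0.21 to 0.43. Igf1, a growth factor made by the stroma, had levels of 4.57, 4.37, 4.38 and 4.13 in MISS KO E2, and of 4.26, 4.38, 4.45 and 4.37 in MISS WT E2, so that the E2 groups overlapped. Its difference was 0.08, with an interval of −0.28 to 0.45. Vegfa, the main angiogenic factor, differed by 0.19 with an interval of −0.19 to 0.56. The intervals of these 3 genes lay within 2-fold. Gdf15, a secreted stress factor related to TGF-β, rose by 7.04 ± 0.29 in MISS KO and 7.48 ± 0.29 in MISS WT, and its interval of −1.28 to 0.40 did not. Cdkn1a differed by −0.36, Lif by −0.12 and Fos by 0.66, none of them called. Further probes gave 0.39 ± 0.24 and 0.35 ± 0.22 for Pgr, −0.21 to 0.43 for Igf1 and −0.07 for Vegfa. Those of Cdkn1a gave −0.10 ± 0.30 and 0.30 ± 0.36. Esr1 differed by 0.34 ± 0.17, with further probes at 0.13 to 0.61. None of these probes was called either.

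Greb1, a cofactor of the receptor, shows how placebo arrays enter this quantity. Its levels were 6.41, 5.98, 5.81 and 5.44 in MISS KO E2 and −0.79, 1.07, 1.13 and −0.28 in MISS KO PLB. In MISS WT E2 they were 6.76, 6.49, 6.32 and 5.70, and in MISS WT PLB 3.14, 1.11, 2.77 and 1.38. The E2 groups overlapped and the placebo groups overlapped too. The difference of 1.40 ± 0.63 was not called (adjusted p = 0.42), and it was −0.48 on slide 2 against 3.56 on slide 1. A further Greb1 probe gave 1.01 ± 0.51 and was not called. Ltf, a late secretory gene, likewise differed by 1.38 ± 0.66 without being called.

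The 177 genes with a negative difference were mostly genes that E2 raised in the wild type. Of the 177, 124 were raised in MISS WT, where 35.1% of all tested genes were. In MISS KO, 75 of these 124 were raised as well, 38 were not called and 11 were lowered. A further 30 were lowered in MISS KO and not called in MISS WT, and 23 were lowered in both. Their median E2 response was −0.01 in MISS KO and 1.105 in MISS WT (log2). By calls, the genotypes parted more often under E2 than under placebo. Under E2, 144 of the 177 were lower in MISS KO than in MISS WT. Over all tested genes 2.82% were called under E2 and 1.95% were lower. Under placebo, 20 of the 177 were higher in MISS KO, where 0.85% of all tested genes were called and 0.399% were higher. Of these 20, 16 were not called under E2. A missing placebo call does not show equal levels. The median of KO minus WT was −0.75 under E2 and 0.22 under placebo. In 157 of the 177 genes no MISS KO E2 array overlapped a MISS WT E2 array, while over all tested genes, in either direction, 8.07% had groups apart. Because the responses and both contrasts share arrays with the difference, these counts and medians describe it and are no separate evidence.

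Mdga1, which encodes a lipid-anchored cell adhesion protein known from synapses, had the largest negative difference among the named genes. It had levels of −1.84, −1.98, −1.49 and −1.03 in MISS KO E2 and −1.78, −2.09, −2.03 and −1.63 in MISS KO PLB, against −0.06, 0.36, 0.19 and 0.61 in MISS WT E2 and −3.80, −2.42, −3.64 and −2.31 in MISS WT PLB. All 4 MISS WT E2 arrays lay above every other MISS array, and MISS KO arrays did not separate by treatment. The placebo groups did not overlap either, with a mean of −1.88 in MISS KO PLB above −3.04 in MISS WT PLB. The response was 0.30 ± 0.29 in MISS KO and 3.32 ± 0.29 in MISS WT, and the difference of −3.02 ± 0.41 had an adjusted p of 0.000223. It lay between −3.80 and −2.31 within the 4 slides.

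Further genes had E2 groups clearly apart. Smarcd3, a subunit of the SWI/SNF chromatin remodelling complex, had levels of 1.64, 1.11, 1.43 and 1.78 in MISS KO E2 and 1.23, 0.93, 0.76 and 0.94 in MISS KO PLB, against 2.97, 3.20, 2.81 and 3.02 in MISS WT E2 and 0.66, 1.22, 0.78 and 0.78 in MISS WT PLB. The E2 groups did not overlap and the placebo groups did. Its response was 0.52 ± 0.15 in MISS KO and 2.14 ± 0.15 in MISS WT, a difference of −1.62 ± 0.21 with an adjusted p of 0.000127. Efnb3, the ligand ephrin-B3, had levels of 3.45, 2.91, 3.28 and 3.18 in MISS KO E2 and 1.98, 1.63, 1.44 and 1.66 in MISS KO PLB, against 4.67, 4.60, 4.60 and 4.80 in MISS WT E2 and 1.15, 1.61, 1.01 and 1.48 in MISS WT PLB. It rose in both genotypes, by 1.52 ± 0.16 in MISS KO and 3.35 ± 0.16 in MISS WT, and the difference of −1.83 ± 0.23 had an adjusted p of 9.35e-05. Dok7, an adaptor that activates the muscle kinase MuSK, rose by 4.09 ± 0.18 in MISS KO and 5.97 ± 0.18 in MISS WT. Its levels of 3.51, 2.98, 3.59 and 3.42 in MISS KO E2 lay below the 5.02, 5.03, 5.02 and 4.81 in MISS WT E2, and a further probe of the gene gave −2.12 beside the −1.89 of the main one.

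**Figure D2:**
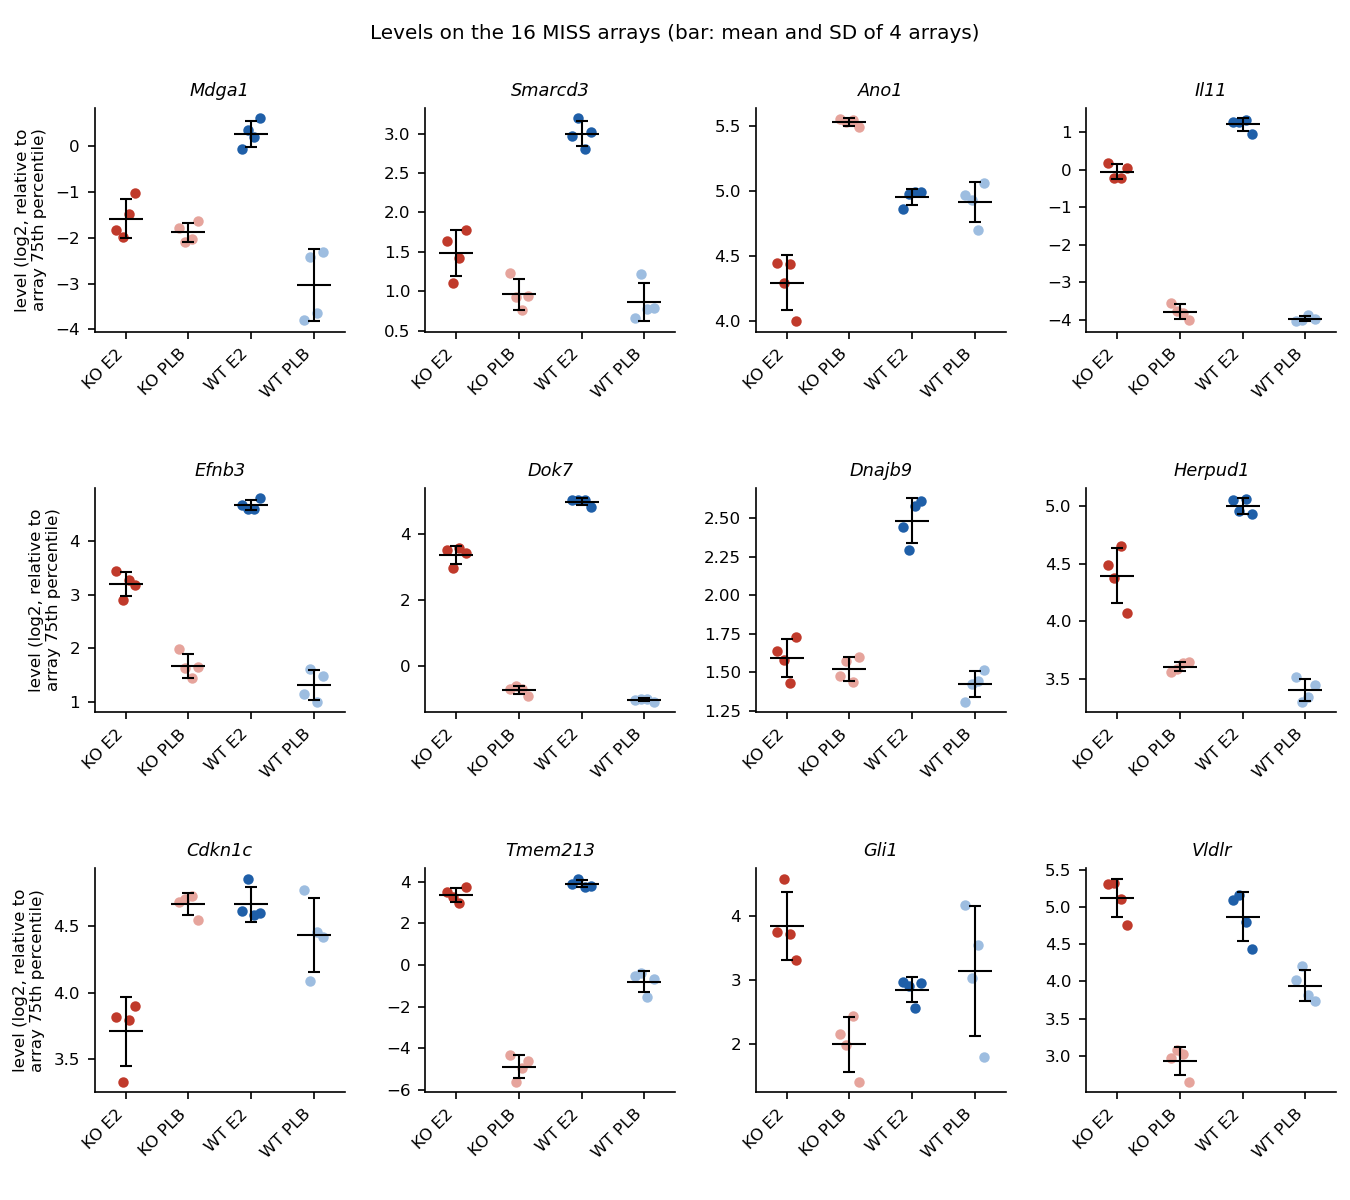
Levels of 12 genes on the 16 MISS arrays (log2 relative to the 75th percentile of the array), 1 point per array, with the mean and SD of 4 arrays as a bar, for KO E2, KO PLB, WT E2 and WT PLB. In Mdga1, Smarcd3, Il11, Efnb3, Dok7, Dnajb9 and Herpud1 the WT E2 arrays lie above all KO E2 arrays, and in Tmem213 and Vldlr the KO PLB arrays lie below all WT PLB arrays.

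Il11, a cytokine of the interleukin 6 family that the uterine stroma needs for decidualisation, and whose promoter with its AP-1 motif is printed above, responded strongly in both genotypes. It had levels of 0.19, −0.23, −0.22 and 0.06 in MISS KO E2 and −3.55, −3.76, −3.82 and −4.01 in MISS KO PLB, against 1.26, 1.28, 1.33 and 0.96 in MISS WT E2 and −4.03, −4.01, −3.87 and −3.99 in MISS WT PLB. The response was 3.74 ± 0.13 in MISS KO and 5.18 ± 0.13 in MISS WT, and the difference of −1.45 ± 0.19 had an adjusted p of 9.89e-05. Of the other 24 tested cytokines and chemokines, Csf3 was called, with a positive difference. Within cytokine signalling, Stat5b, which relays cytokine and hormone receptors to the nucleus, had a difference of −0.58 ± 0.12 (adjusted p = 0.0164), with a response of −0.05 in MISS KO and 0.53 in MISS WT. A further Stat5b probe gave −0.71. The call was lost in 1 of the 16 fits without an array.

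Other negative genes act on matrix, ion transport and receptors. P4ha2, a subunit of the prolyl hydroxylase that collagen needs, had levels of 3.98, 3.60, 4.05 and 3.49 in MISS KO E2 and 6.16, 5.93, 6.18 and 5.74 in MISS WT E2, with a difference of −2.08 ± 0.31 (adjusted p = 0.00044). Its placebo arrays overlapped, at 0.36 to 0.84 in MISS KO and 0.28 to 1.22 in MISS WT. Slc9a2, a sodium/hydrogen exchanger of epithelia, changed by −0.01 ± 0.29 in MISS KO and 2.74 ± 0.29 in MISS WT. Col26a1, a collagen gene, is also represented under its older name Emid2 by a probe 5 bases away, so that the count of 243 holds it under both names, with differences of −2.71 and −2.58. Lhx3, a homeobox transcription factor of the pituitary, changed by 0.08 ± 0.23 in MISS KO and 2.38 ± 0.23 in MISS WT. Nkpd1 rose by 3.35 ± 0.24 in MISS KO and 5.78 ± 0.24 in MISS WT, and Cntfr, the binding subunit of the ciliary neurotrophic factor receptor, differed by −2.02 ± 0.38. Fam170b, whose response was 0.11 ± 0.15 in MISS KO and 1.86 ± 0.15 in MISS WT, was among the 10 smallest p-values. Each of these genes was called with any 1 MISS array left out.

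A set of genes fell with E2 in MISS KO and was not called in MISS WT. Ano1, a calcium-activated chloride channel of pacemaker and secretory cells, had the smallest p of the negative genes. Its levels were 4.45, 4.29, 4.44 and 3.99 in MISS KO E2 and 5.55, 5.53, 5.54 and 5.49 in MISS KO PLB, against 4.86, 4.97, 4.99 and 4.99 in MISS WT E2 and 4.97, 4.93, 4.70 and 5.06 in MISS WT PLB. The MISS KO PLB arrays were above, and the MISS KO E2 arrays below, all 8 wild-type arrays. The response was −1.24 ± 0.10 in MISS KO and 0.04 ± 0.10 in MISS WT, and the difference of −1.28 ± 0.14 had an adjusted p of 3.5e-05. Cdkn1c, the cell cycle inhibitor p57, had levels of 3.81, 3.33, 3.79 and 3.90 in MISS KO E2 and 4.68, 4.70, 4.72 and 4.54 in MISS KO PLB, against 4.61, 4.85, 4.58 and 4.59 in MISS WT E2 and 4.77, 4.08, 4.45 and 4.42 in MISS WT PLB. Here the MISS KO E2 arrays alone stood apart, below the other 12. The difference of −1.18 ± 0.19 had an adjusted p of 0.00117.

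Pole, the catalytic subunit of DNA polymerase ε, fell by 0.84 in MISS KO, with a change of 0.18 ± 0.11 in MISS WT and a difference of −1.02 ± 0.16 (adjusted p = 0.00099). Further Pole probes gave −0.11 ± 0.81 and −0.02 ± 0.85. Cpne5, a calcium-dependent phospholipid-binding protein, is 1 of the 11 genes lowered in MISS KO and raised in MISS WT, with responses of −0.60 ± 0.10 in MISS KO and 0.57 ± 0.10 in MISS WT. Tgfb3, a TGF-β ligand, was another, with −0.39 in MISS KO and 0.38 in MISS WT, but its call held in only 5 of the 16 fits without an array.

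For some genes with a negative difference a group was not well above background on any of its 4 arrays, so that a fold is only a bound. E2 raised Fam163a at least 7.16-fold in MISS WT (adjusted p = 2.12e-11), Cyp3a25 at least 5.63-fold (adjusted p = 1.42e-09), Cacng5 at least 12.3-fold (adjusted p = 1.47e-11) and Gad2 at least 6.35-fold (adjusted p = 5.75e-11). In MISS KO, Fam163a and Cyp3a25 were not well above background under either treatment, and Gad2 rose at least 1.62-fold, well above background on 2 of 4 MISS KO E2 arrays. Cacng5 was well above background on 4 of 4 MISS KO E2 arrays. Disp2 and Slc47a1 were not well above background on any MISS KO E2 array. Slc47a1 was well above it on 2 of 4 arrays in MISS KO PLB, 2 of 4 in MISS WT E2 and 1 of 4 in MISS WT PLB. Without a filter on dim probes 188 genes were called, and with probes well above background on all 16 MISS arrays 238.

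The 66 genes with a positive difference were of several kinds. In both genotypes 21 were lowered and 21 raised, 12 were raised in MISS KO without a call in MISS WT, 7 were lowered in MISS WT without a call in MISS KO, and 5 were raised in MISS KO and lowered in MISS WT. These 5, named after their values were seen, were Tst, Lbp, Klhl31, Dgat2 and 1 lincRNA feature, and the 4 genes changed by 0.34 to 0.63 in MISS KO and by −0.62 to −0.44 in MISS WT. Over all 66 the median E2 response was 0.50 in MISS KO and −0.42 in MISS WT. Since the same values chose these genes, the counts and medians only describe them. Genotypes parted under E2 in 29 of the 66, higher in MISS KO, where 0.876% of all tested genes were higher, and under placebo in 20, lower in MISS KO, where 0.451% were lower. No gene of the 66 was called under both treatments.

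Tmem213 had the largest positive difference, and it came with a difference between the placebo groups. It had levels of 3.49, 3.27, 2.98 and 3.76 in MISS KO E2 and −4.32, −5.61, −4.93 and −4.62 in MISS KO PLB, against 3.89, 4.16, 3.76 and 3.81 in MISS WT E2 and −0.55, −0.38, −1.55 and −0.68 in MISS WT PLB. Every MISS KO PLB array was below every MISS WT PLB array, while the E2 groups lay close together, the highest MISS KO array just under the lowest MISS WT array. The response was 8.24 ± 0.28 in MISS KO and 4.69 ± 0.28 in MISS WT, the difference 3.55 ± 0.39 (adjusted p = 3.5e-05), and KO minus WT was −0.53 under E2 and −4.08 under placebo. Ppp2r2b, a regulatory subunit of protein phosphatase 2A, had the same form, with levels of −0.34, 0.02, 0.03 and −0.30 in MISS KO PLB and from 1.13 to 2.19 in MISS WT PLB. KO minus WT of Ppp2r2b was −0.27 under E2 and −1.84 under placebo, and the difference was 1.57 ± 0.27 (adjusted p = 0.00266).

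**Figure D3:**
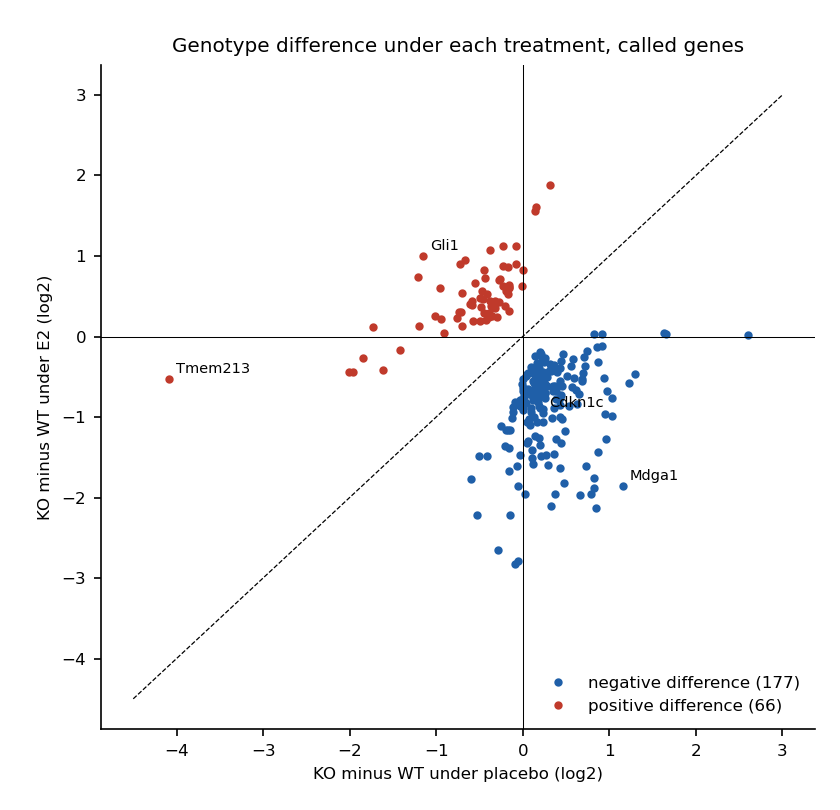
MISS KO minus MISS WT under E2 (vertical, log2) against the same under placebo (horizontal, log2) for the 243 called genes, 1 point per gene, with the line of equal values dashed. The 177 negative genes have a median of −0.75 on the vertical axis and 0.22 on the horizontal one, while Tmem213 lies at −4.08 under placebo.

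Vldlr, a receptor for lipoproteins and reelin, was measured by 2 probes that both passed. Its levels were 5.30, 5.32, 5.10 and 4.76 in MISS KO E2 and 2.97, 3.08, 3.02 and 2.65 in MISS KO PLB, against 5.09, 5.16, 4.80 and 4.43 in MISS WT E2 and 4.02, 4.20, 3.81 and 3.74 in MISS WT PLB. The E2 groups overlapped and the placebo groups did not, and the differences by probe were 1.26 ± 0.25 and 1.59 ± 0.17. Slc38a1, a glutamine transporter, and Cldn10, a tight junction protein, were also lower in MISS KO under placebo, with differences of 0.69 ± 0.14 and 0.76 ± 0.16 (adjusted p = 0.0145 and 0.0155). Csf3, the granulocyte colony-stimulating factor, Dio2, which activates thyroid hormone, and Lrat, which esterifies retinol, followed the same pattern, but were called in only 5, 3 and 3 of the 16 fits without an array. Lrat was not well above background in MISS KO PLB, and E2 raised it at least 8.14-fold in MISS KO (adjusted p = 1.22e-14). The summed level of granulocyte markers (10 of 14 tested) was 2.71 to 3.07 in MISS KO PLB and 3.39 to 4.66 in MISS WT PLB, without overlap, and that of lymphocyte markers (15 of 15) was 2.98 to 3.72 in MISS KO PLB and 3.32 to 4.51 in MISS WT PLB. Their part in the genes that were lower in MISS KO under placebo was not tested.

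Further positive genes were higher in MISS KO under E2. Grb7, an adaptor of receptor tyrosine kinases, had levels of 0.56, 0.54, 0.29 and 0.87 in MISS KO E2 and 2.48, 2.25, 2.26 and 2.47 in MISS KO PLB, against −0.45, −0.28, −0.32 and 0.02 in MISS WT E2 and 2.87, 2.39, 3.09 and 2.91 in MISS WT PLB. It fell in both genotypes, by 1.80 in MISS KO and by 3.07 in MISS WT, and the difference of 1.27 ± 0.21 had an adjusted p of 0.00128. Jakmip1 fell by 1.32 in MISS KO and by 2.78 in MISS WT, although another probe of it gave a difference of 0.06. Spon2, a secreted matrix protein, rose by 3.06 ± 0.18 in MISS KO and 1.71 ± 0.18 in MISS WT, and Tmem119 rose by 2.09 ± 0.20 in MISS KO and 0.46 ± 0.20 in MISS WT. Dleu7 rose by 2.57 ± 0.22 in MISS KO and 0.94 ± 0.22 in MISS WT. Under placebo the mean of Tmem119 was lower in MISS KO, at 1.16 against 1.88 in MISS WT. That of Dleu7 was −4.09 in MISS KO PLB and −3.42 in MISS WT PLB, without overlap of the arrays. Gli1, Oit1 and Rgs1 had a positive difference without a call under either treatment alone. Gli1, the transcription factor that hedgehog signalling induces, rose by 1.85 ± 0.33 in MISS KO and changed by −0.29 ± 0.33 in MISS WT, with a difference of 2.14 ± 0.47 (adjusted p = 0.0214). A further Gli1 probe gave 0.38 and the call was lost in 4 of 16 fits without an array. Stac2, Oit1 and Rgs1, with differences of 1.57, 1.94 and 1.55, lost their calls in 9, 13 and 3 of those fits.

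**Figure D4:**
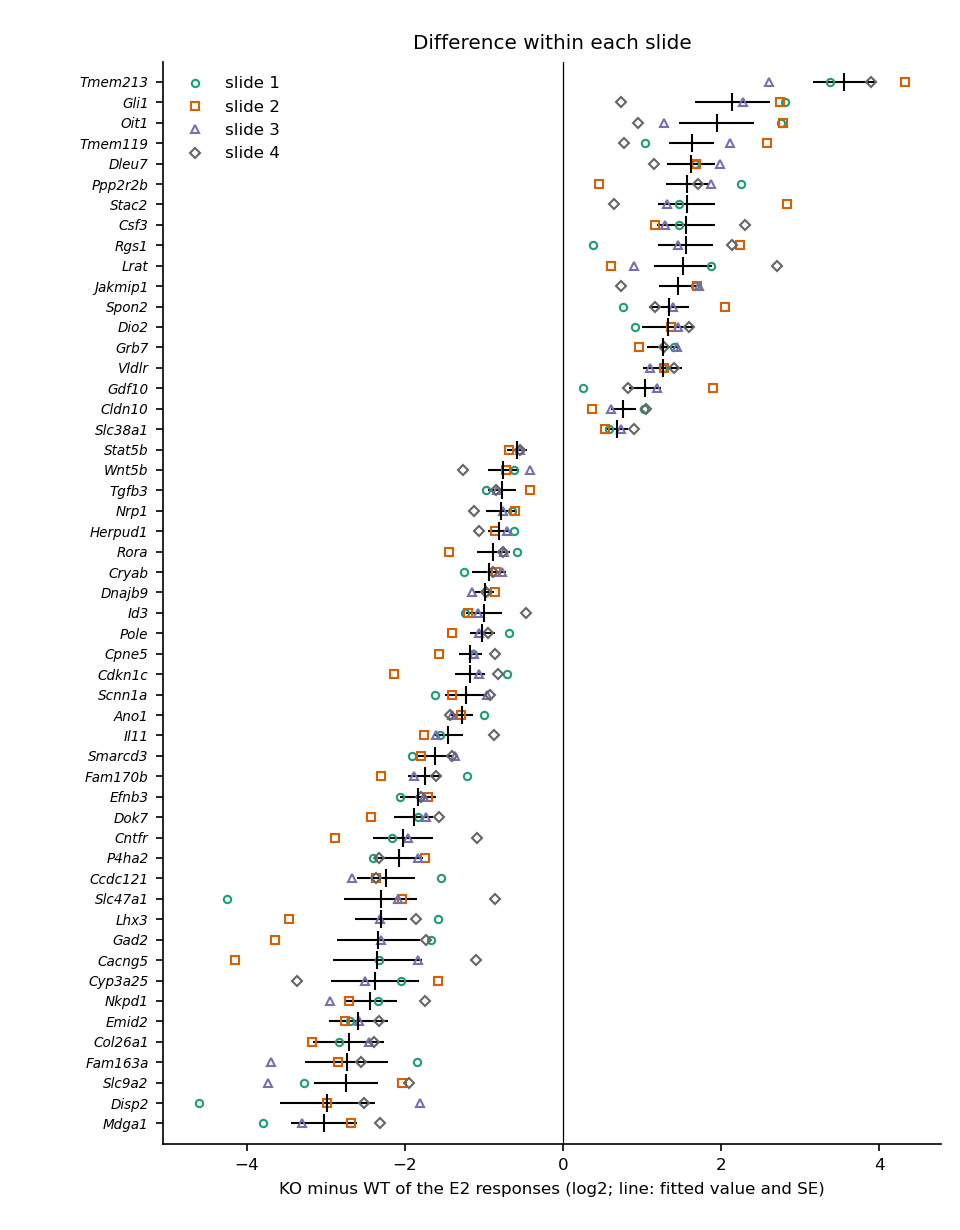
KO minus WT of the E2 responses (log2) for the called genes that were chosen for naming and are reported here, with the fitted value and its SE as a cross and the value within each of the 4 slides as a symbol. All 4 slide values have the sign of the fitted value in each of these genes.

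Within slides the sign was the same on all 4 for 176 of the 177 negative and 66 of the 66 positive genes, against 24.3% of all tested genes. Since the same arrays gave the calls, this adds a description of their evenness. Cell type markers were measured beside them, because in whole tissue fewer cells of a type and less RNA per cell cannot be told apart. Markers of epithelium (20 of 20 tested), stroma (15 of 15) and smooth muscle (15 of 15) were present on all arrays, with summed levels of 7.50 to 7.98, 8.12 to 8.57 and 9.97 to 10.3 in MISS KO E2, and of 7.72 to 7.96, 8.35 to 8.47 and 10.06 to 10.56 in MISS WT E2. In placebo arrays epithelial markers summed to 7.40 to 7.73 in MISS KO and 7.44 to 7.68 in MISS WT. Stroma gave 9.17 to 9.41 and 9.20 to 9.53, and smooth muscle 9.23 to 9.82 and 9.40 to 10.5, in that order. Markers of bladder, skeletal muscle and blood (7 of 11 tested) summed to 3.78 to 5.43 in MISS KO PLB and 5.38 to 6.43 in MISS WT PLB. Under E2 they summed to 5.80 to 7.10 in MISS KO and 5.77 to 6.63 in MISS WT. Adipocyte markers (9 of 10 tested) ranged from 1.75 to 7.27 in MISS KO E2, 4.28 to 6.85 in MISS KO PLB, 3.29 to 6.82 in MISS WT E2 and 3.63 to 6.65 in MISS WT PLB. Their median difference was −0.23, 1.39, 3.79 and −3.77 within slides 1 to 4, and that of macrophage markers −0.40, 2.09, 0.96 and −0.74. None of these marker genes was called except Cldn10 of the epithelial list, and their part in the results was not tested.

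Among 54 gene lists, that of ER chaperones and sensors of unfolded protein leaned to the negative side. Of its 23 tested genes, Dnajb9 and Herpud1 were called, both negative, against 0.654% of all genes. A negative sign was found in 21 of the 23, against 61% of all genes, and the median difference was −0.29 against −0.07 for all genes. E2 raised 20 of the 23 in MISS KO and 22 in MISS WT, against 30.1% and 35.1% of all genes. Under E2, 11 were lower in MISS KO than in MISS WT, against 1.95% of all genes. The list median was −0.35, −0.17, −0.13 and −0.45 within slides 1 to 4. Intervals stayed within 2-fold for 19 of the 23 genes. At an unadjusted p under 0.05 stood 10 of the 23, against 10.7% of all genes.

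Dnajb9, a cochaperone of the main ER chaperone, had no called response in MISS KO. Its levels were 1.64, 1.58, 1.43 and 1.73 in MISS KO E2 and 1.47, 1.57, 1.44 and 1.60 in MISS KO PLB, against 2.44, 2.30, 2.58 and 2.61 in MISS WT E2 and 1.31, 1.43, 1.45 and 1.52 in MISS WT PLB. The 4 MISS WT E2 arrays stood above all the others. The response was 0.07 ± 0.09 in MISS KO and 1.06 ± 0.09 in MISS WT, and the difference of −0.99 ± 0.12 had an adjusted p of 8.22e-05 and lay between −1.14 and −0.86 within slides. Herpud1, which serves the removal of misfolded ER proteins, had levels of 4.49, 4.38, 4.65 and 4.08 in MISS KO E2 and 3.56, 3.58, 3.64 and 3.65 in MISS KO PLB, against 5.06, 4.96, 5.06 and 4.93 in MISS WT E2 and 3.52, 3.30, 3.34 and 3.44 in MISS WT PLB. It rose in both genotypes, by 0.79 ± 0.09 in MISS KO and 1.60 ± 0.09 in MISS WT, and the difference was −0.81 ± 0.13 (adjusted p = 0.00134). Hspa5, the main ER chaperone itself, named after its value was seen, rose by 1.90 in MISS KO and 2.50 in MISS WT, and its difference of −0.60 had an interval of −0.95 to −0.26 and an adjusted p of 0.095.

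**Figure D5:**
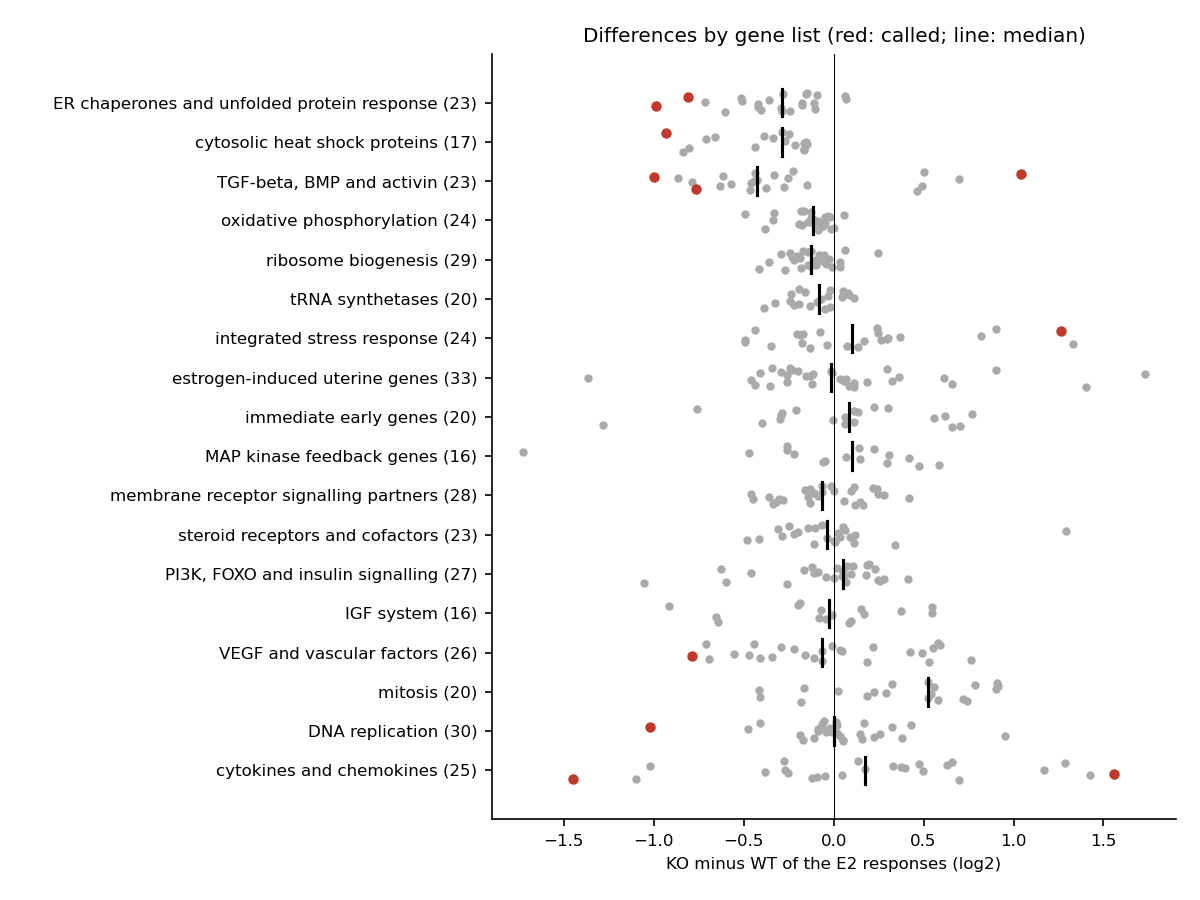
KO minus WT of the E2 responses (log2) for the tested genes of 18 lists, 1 point per gene, called genes in red and the median of the list as a line, with the number of tested genes in brackets. All cytosolic heat shock proteins and 21 of 23 ER genes lie below 0, while the lists of estrogen-induced genes and membrane receptor partners lie on both sides.

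Cytosolic heat shock proteins leaned the same way. All 17 tested genes had a negative sign, with a median of −0.29 and within slides of −0.48, −0.01, −0.30 and −0.48. E2 raised 16 of them in MISS KO and 17 in MISS WT, against 30.1% and 35.1% of all genes. Called different was 1 of the 17, where 0.898% of all genes were (6 at an unadjusted p under 0.05). This was Cryab, a small heat shock protein of muscle and lens, which rose by 0.65 ± 0.15 in MISS KO and 1.58 ± 0.15 in MISS WT, a difference of −0.93 ± 0.22 (adjusted p = 0.0293) that was called in 8 of 16 fits without an array. In oxidative phosphorylation 23 of 24 genes had a negative sign, with a median of −0.12 that was 0.03 with quantile normalization and 0.01 with the authors' matrix. None was called in limma (2 at an unadjusted p under 0.05), and 23 of 24 intervals lay within 2-fold.

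Other lists leaned to the positive side without a called member. In mitosis 4 of 20 genes had a negative sign, the median was 0.52, and 6 had an unadjusted p under 0.05 in limma. Within slides 1 to 4 the mitosis median was 0.48, 1.06, 0.34 and −0.19. In the MHC class II list 1 of 12 genes had a negative sign, with a median of 0.46 that was 1.95 within slide 2 and −0.16 within slide 4. In the interferon response 3 of 22 had a negative sign, with a median of 0.33 that was 0.79 within slide 2 and −0.40 within slide 4. Neither of these immune lists had a gene at an unadjusted p under 0.05, and their median of KO minus WT under placebo was −0.63 and −0.56.

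TGF-β, BMP and activin genes had a median of −0.43, with 18 of 23 negative in sign and within slides between −0.60 and −0.14. Called were 3 of the 23, where 0.898% of all genes were (8 at an unadjusted p under 0.05). They were Id3, an inhibitor of differentiation that BMP signals induce (−0.996 ± 0.23), Tgfb3 (−0.77 ± 0.18) and, in the other direction, the BMP-like ligand Gdf10 (1.04 ± 0.20). Gdf10 had levels of 3.79, 3.95, 3.83 and 3.79 in MISS KO E2, above the 3.10, 2.72, 2.92 and 3.17 in MISS WT E2, and was called with any 1 array left out. Id3 was called in 6 of the 16 fits and was higher in MISS KO under placebo by 0.86, with KO minus WT of −0.13 under E2. Single members were called in several other lists. They were Nrp1, a coreceptor of VEGF and semaphorins (−0.79 ± 0.19), Scnn1a, the α subunit of the epithelial sodium channel (−1.22 ± 0.27), the ligand Wnt5b (−0.76 ± 0.19) and the clock-related receptor gene Rora (−0.88 ± 0.21), each called in 2 to 10 of the 16 fits, and another Rora probe gave 0.30.

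The counts of called members in the following lists, all 0 in limma, are near the 0.898% of all genes and say little about the lists, so that medians and intervals are given with them. Estrogen-induced uterine genes had no called member among 33 (6 at an unadjusted p under 0.05), a median difference of −0.01 and intervals within 2-fold for 19. E2 raised 29 of them in each genotype, where 30.1% of all genes were raised in MISS KO and 35.1% in MISS WT. Immediate early genes had no called member among 20 (2 at an unadjusted p under 0.05), with 18 raised in each genotype and a median of 0.09, and only 8 intervals lay within 2-fold. Of 28 membrane signalling partners of the receptor, none was called (4 at an unadjusted p under 0.05), and 27 had intervals within 2-fold. They include caveolins, G protein subunits and kinases. Under E2, 2 of the 28 were lower in MISS KO than in MISS WT, where 1.95% of all genes were. All 29 ribosome biogenesis genes were raised in both genotypes, none was called different (1 at an unadjusted p under 0.05), and all 29 intervals lay within 2-fold, with Rrp12 at 4.25 in MISS KO and 4.34 in MISS WT. A negative sign was found in 25 of the 29, with a median of −0.12, and in 15 of 20 tRNA synthetases, against 61% of all genes. These medians depended on the scaling. That of ribosome biogenesis was −0.05 with median scaling and −0.03 with the authors' matrix. For tRNA synthetases it was −0.08, near the −0.07 of all genes, and −0.01 and 0.02 under these 2 scalings. Steroid receptors and cofactors (23 tested), PI3K, FOXO and insulin signalling (27), the IGF system (16), tRNA synthetases (20) and cholesterol and fatty acid synthesis (28) also had no called member (4, 3, 5, 0 and 3 at an unadjusted p under 0.05, in that order), with medians between −0.08 and 0.19.

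The difference of the AF2 line was of another order. It was called for 14055 genes (51.9%; 29.0% positive and 22.9% negative), against 243 in the MISS line, and the difference between the lines, tested as a contrast of its own, for 10598 (39.2%; 16.6% positive and 22.6% negative). For estrogen-induced genes the median was −0.01 in the MISS line and −3.63 in the AF2 line, and for ribosome biogenesis −0.12 and −2.45. Among the 177 genes negative in the MISS line, 88 had a negative and 33 a positive difference in the AF2 line and 56 were not called, and the lines differed for 84 toward a more negative value in MISS and for 27 toward a less negative one. Of the 66 positive genes, 25 had a positive and 24 a negative difference in the AF2 line. The lines differ in substrain as well as in the alteration, which cannot be told apart here.

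Single genes differed in how the lines compared. Il11 had a difference of −1.45 ± 0.19 in the MISS line and −3.30 ± 0.19 in the AF2 line, and MISS minus AF2 was 1.86 ± 0.27 (adjusted p = 5.46e-06). P4ha2 had −2.08 and −2.09, a contrast of 0.01 ± 0.44. Ano1 had −1.28 ± 0.14 in the MISS line and 0.48 ± 0.15 in the AF2 line, of opposite sign, and the contrast was −1.75 ± 0.21 (adjusted p = 3.16e-07). Cdkn1c had −1.18 ± 0.19 in the MISS line and 0.30 ± 0.20 in the AF2 line, with a contrast of −1.48 ± 0.27 (adjusted p = 0.000119). For Dnajb9 the AF2 difference was −0.15 ± 0.13 and its E2 response in AF2 WT was 0.11, beside 1.06 in MISS WT. Tmem213 had 3.55 in the MISS line and −2.66 in the AF2 line. Over the called genes the AF2 WT response was nearer to that of MISS WT than of MISS KO for 64 of the 177 negative and 37 of the 66 positive genes, where 44% of all tested genes were.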

How the data were processed

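RNA from mouse uterus was measured on 31 one-colour Cy3 arrays. Per the submitters' processing notes the authors used Agilent Feature Extraction 10.10.1.1, and limma without a version. Spot intensity was deposited after the scanner software had removed background, per the file headers, and carries no scaling between arrays. A table of processed log2 values for 43753 probes was also deposited by the authors. Its columns have medians of 7.56 and correlate best with the scanner values of their own array for 31 of 31 arrays. Their further steps are not given in the sources used here.

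Control spots and outlier-marked spots were left out, spots of a probe were averaged as log2, and the 75th percentile of each array was subtracted. A probe was tested when all arrays of any of the 8 groups had it well above background (40332). A gene was its tested probe with the highest mean (27056 genes, 3930 of them lincRNA features, 56 missing values). Names of 27235 probes came through their accession, and mm9 positions came from the array annotation. Group means over 31 arrays were fitted in limma 3.58.1 (R 4.3.3, 23 residual and 2.38 prior degrees of freedom), with calls at p under 0.05 after Benjamini-Hochberg adjustment. The fit was tested on simulated data. The number of arrays limits the precision.

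Named genes were the 15 most negative and 15 most positive called genes of 1 sign on all 4 slides, the 10 smallest p-values, up to 4 called members of each list (otherwise up to 2 with the largest MISS WT response), and 10 known targets, without unnamed, predicted, clone-named or lincRNA features in the first sets. Members and the 54 lists were chosen with earlier results of these data known. Folds given as "at least" compare with the dimmest signal well above background on each array, or the measured value where higher. Alternatives were other scalings (median, quantile, normexp with offset 50, the authors' matrix), filters, sets of arrays, slide as a block, array weights, all probes, and each array left out. Leaving out each slide was added after the data were seen. A called gene that the rule names is not reported here.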

Additional observations from a re-analysis of the deposited data

Results flagged for a closer look

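Of 252 sets of 4 arrays, 1 for each of 63 named genes and each MISS group, 11 (4.37%) had 1 array whose gap to the nearest of the others passed Dixon's 95% limit. Chance gives about 1 in 20. Replicate 2 of MISS KO E2 stood apart in 4 of them, with Ccdc121 at −6.14 (others −5.67 to −5.60), Cntfr at −2.46 (others −1.80 to −1.77), Id3 at 3.60 (others 3.16 to 3.20) and Esr1 at 2.85 (others 3.36 to 3.41). Replicate 4 of MISS KO E2 was low for Wnt5b, at 2.10. In MISS WT E2, replicate 1 was low for Ano1 at 4.86, replicate 2 was high for Cdkn1c at 4.85, and replicate 4 was low for Dok7 at 4.81 and for Rora at 0.316. Replicate 3 of MISS KO PLB was low for Scnn1a at 0.878, and replicate 4 of MISS WT PLB was high for Nrp1 at −0.952.

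The estradiol response differed between MISS KO and MISS WT for 243 genes by the contrast of the responses. That difference itself differed between the MISS and AF2 lines for 10598 genes.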

How the results depend on the processing

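The count of 243 moved by over 1.5 times under 4 alternatives and with slides left out. It was 153 with the 16 MISS arrays alone, 1119 with slide as a block, 503 with slide as a block in the 16 MISS arrays and 1870 with array weights. Without slides 1, 2, 3 and 4 it was 62, 63, 44 and 392, with 12 MISS arrays left. Under other scalings, filters or probes it was 188 to 307, and the split was 74 positive and 127 negative with median scaling, 87 and 147 with quantile normalization, and 91 and 183 with the authors' matrix, beside 66 and 177. The median difference of all genes was −0.07, 0.00 with median scaling and −0.10 with normexp. MISS KO against WT under placebo gave 230 genes, 375 with the authors' matrix, 78 with MISS arrays alone, 839 with the block and 1721 with array weights. Under E2 it gave 764, and 466 with MISS arrays alone, 2016 with the block, 1173 with the block in MISS arrays and 2100 with array weights. With 1 MISS array left out, the ranges were 138 to 354 for the difference, 59 to 672 under placebo, 438 to 1069 under E2, 14827 to 15625 and 15768 to 16909 for the responses of MISS KO and MISS WT, 13898 to 14263 for AF2, 10101 to 10775 between the lines, 68.1 to 70.6% for intervals within 2-fold, and 95.3 to 98.3% for the share of the response, which was 91.3% within slide 3. The causes were not tested.

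Of the 53 named called genes 35 were called with any 1 array left out and 16 under every alternative run. Without slides 1, 2 and 3, 29, 31 and 29 of the 53 lost their call. Of these results 2 turned sign, Lrat to −0.14 with normexp and Rora to 0.30 with its other probe. Of the list medians under an alternative, 1527 moved by less than the spread of the slides and 93 by more. These counts do not measure stability, because part of them was fixed by the design. Fits of the MISS arrays alone, with or without slide as a block, leave the medians nearly unchanged in this balanced layout. The medians within single slides, which gave the spread, were counted as alternatives too. The labels tie no arrays of different groups to each other, so that slide was the block used.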

Other observations

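Called genes outside the naming rule, chosen here after their values were seen, are given here singly, with no count or test of a group behind them. Alg2, a mannosyltransferase of N-glycan assembly, rose by 0.58 in MISS KO and 1.17 in MISS WT, with a difference of −0.59 ± 0.12 (adjusted p = 0.0113). Rcn1, a calcium-binding protein of the ER lumen, differed by −0.69 ± 0.13 (adjusted p = 0.00509), and both were called with any 1 of 16 arrays left out. Magt1, of the oligosaccharyl transferase complex, differed by −0.66 and Eif2ak3, the ER stress kinase PERK, by −0.71, called in 11 and 12 of 16 such fits. Creb3l1, an ER-anchored transcription factor, went the other way, with 0.98 ± 0.20 and KO minus WT of −0.59 under placebo.

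Further such genes had negative differences. Cacna1g, a T-type calcium channel, rose by 2.66 in MISS KO and 3.86 in MISS WT (difference −1.20 ± 0.23, adjusted p = 0.00757), and Cacna1h, of the same family, differed by −1.16 ± 0.27, called in 5 of 16 fits without an array. Dlgap3, a scaffold protein of synapses, rose by 1.74 in MISS KO and 3.54 in MISS WT (difference −1.80 ± 0.27, adjusted p = 0.000515). Epas1, the hypoxia factor HIF-2α, rose by 0.85 in MISS KO and 1.61 in MISS WT, with a difference of −0.76 ± 0.14 (adjusted p = 0.00474).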
